A study of Mus musculus with 6 samples.

Results

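Heads of mouse embryos homozygous for a Prdm15 allele were compared with wild-type heads by RNA sequencing. The comparison used 4 of the 6 libraries of the series, chosen by their titles and genotype labels: 2 wild-type libraries (Prdm15 tm1a+/+) and 2 mutant libraries (Prdm15 tm1a-/-), all from C57BL/6 embryos at embryonic day 8.5 (E8.5). The other 2 libraries, from heterozygous heads (Prdm15 tm1a+/-), entered the fit and are given beside the results. Prdm15 encodes a zinc finger protein of the PRDM family, and tm1a is the usual name of a knockout-first allele that inserts a cassette into the gene. The protocol states 2 heads per genotype and says nothing of litter or batch, and the tests reflect only how far these libraries spread, which may be technical. RNA was polyA-selected and sequenced as stranded read pairs. No age beyond the stage, and no treatment, is given for any group.

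At this stage the head neural plate has been divided into forebrain, midbrain and hindbrain. Forebrain and midbrain express the homeobox genes Otx2 and Otx1, the forebrain adds Six3 and Rax, and a signalling centre between midbrain and hindbrain, the isthmus, expresses Fgf8, Wnt1, En1 and Pax2. The hindbrain is segmented into rhombomeres and, with the trunk, expresses the Hox genes, whose paralogue groups are switched on from front to back in numerical order. Crest cells leave the edges of the plate, and heart, yolk sac and uterine tissue lie next to the head in the intact conceptus. The visceral endoderm of the yolk sac takes up and secretes nutrients and makes many proteins that the liver makes later.

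Levels are RPKM (reads scaled for gene length and library size), given for replicate 1 and then replicate 2 of each group. Fold changes are log2 values for mutant over wild type from read counts, with their standard error (SE), after TMM scaling, which sets most genes level between libraries. Adjusted p is that of edgeR's quasi-likelihood test after Benjamini-Hochberg adjustment over all 15187 genes tested, and a gene passed below 0.05. Of these genes 30.6% passed, 17.1% as higher and 13.6% as lower in mutant heads, and the median over all of them was -0.02. A second scaling set the libraries level on a list of pan-neural genes, to ask how regional genes stood relative to neural tissue. It moved the median of all genes by 0.94, so that 80% of genes passed, 78.1% as higher and 1.86% as lower, and its values are relative to that shift. A gene called higher in this scaling can thus lie at or below the median of all genes, 0.92.

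Total counts were 29412227 to 40439234 per library. Of the libraries compared, wild-type replicate 1 held Y-linked transcripts and almost no Xist, the RNA of X inactivation (0.0149 RPKM). Wild-type replicate 2 and both mutant libraries held Xist at 73.4, 70.7 and 61.4 RPKM. Wild-type replicate 2 and mutant replicate 2 also held transcripts of decidua, the uterine tissue around the implanted embryo. The summed level of the 8 decidua genes was 7.89 and 393 CPM (counts scaled to library size) in the wild-type and 9.39 and 122 in the mutant libraries. The 5 sex-linked genes listed, Xist and Y-linked ones, summed to 169 and 1333 CPM in wild-type and 1226 and 1098 in mutant libraries. In the heterozygous libraries they summed to 156 and 161 CPM, near wild-type replicate 1. The part of these differences in the results was not tested. Counts of genes that passed on TMM scaling were repeated without each library. Those relative to pan-neural genes were repeated for the brain lists together, and counts of groups without overlap were not repeated. Where repeated counts are given, their order is wild-type replicate 1, wild-type replicate 2, mutant replicate 1 and mutant replicate 2 left out. Genes that passed then numbered 2459, 3012, 1997 and 2627, against 4654 with all libraries. The count files of wild-type replicate 2 and mutant replicate 1 are attached to each other's samples, and they are used here by the title in their names, which matches the RPKM columns. With the files as attached no gene passed, and 318 had an unadjusted p under 0.05.

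Prdm15 itself (chromosome 16, 97791467 to 97851850, minus strand, GRCm38) stood at 5.56 and 5.14 RPKM in wild-type, 4.47 and 5.01 in heterozygous and 4.16 and 5.04 in mutant heads. Both mutant values lay just under both wild-type values. The log2 fold change of -0.21 (SE 0.12) did not pass (adjusted p = 0.221). Reads over the whole gene do not separate normal transcripts from those of an allele with an inserted cassette, so this level checks no genotype label.

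Otx2 (chromosome 14, 48657677 to 48673819, minus strand, GRCm38), which the forebrain and midbrain need to form, fell. Its level was 46.8 and 36.9 RPKM in wild-type, 32.4 and 30.8 in heterozygous and 18.1 and 10.7 in mutant heads. The mutant libraries were the lowest of all, the heterozygous ones lay between, and no group overlapped another. On the log2 scale the difference was -1.53 (SE 0.25, adjusted p = 0.00964), and Otx2 passed whichever library was left out. Relative to pan-neural genes it was -0.61 (adjusted p = 0.0434), a call lost without wild-type replicate 1 (-0.35, adjusted p = 0.254), without mutant replicate 2 (-0.28, adjusted p = 0.229) and when the neuron list set the scale (-0.29, adjusted p = 0.183). Both other genes of its list fell too. Otx1, a related gene with a later role in cortex and sense organs, fell from 21.3 and 18.6 RPKM in wild-type to 4.73 and 1.43 in mutant heads (log2 -2.67, SE 0.56, adjusted p = 0.019; 0.0571 without wild-type replicate 1). Dmbx1, a homeobox gene of the midbrain, fell from 4.05 and 3.98 to 1.57 and 1.06 RPKM (log2 -1.59, SE 0.26, adjusted p = 0.00882).

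A RefSeq promoter of Otx2 is shown, from 250 bases before to 50 after the start (GRCm38.p6, chr14:48665060-48665359, minus strand). Otx2 was chosen because it is named in the series title. Of its promoters only those that hold TAATCC, read on both strands, were kept for display. The upstream end of the gene lies at position 48673819, so this start lies inside the gene. OTX proteins bind the bicoid-type sequence TAATCC, and capitals mark its single match, on the opposite strand as GGATTA:

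Otx2 promoter: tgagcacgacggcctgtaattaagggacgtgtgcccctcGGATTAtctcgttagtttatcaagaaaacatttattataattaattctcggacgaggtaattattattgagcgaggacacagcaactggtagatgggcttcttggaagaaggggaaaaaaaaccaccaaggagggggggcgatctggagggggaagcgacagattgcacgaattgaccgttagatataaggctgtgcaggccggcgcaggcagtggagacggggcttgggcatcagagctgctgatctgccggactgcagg

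The 6 letters, read on both strands, occurred in 7.06% of 32851 RefSeq promoters of this length. They occurred in 5 of the 58 promoters found for 42 of the 54 brain genes listed (8.62%), those of Cyp26c1, Mitf, Otx2, Sp8 and Tcf7l2. Of these genes Cyp26c1, Otx2 and Sp8 were lower in mutant heads, while Mitf and Tcf7l2 did not pass. Such a match is a stretch of letters and no evidence of binding.

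Most brain genes that passed were lower in mutant heads, and the lowest medians were those of the anterior forebrain and eye field. Over 7 lists that run from anterior forebrain to hindbrain, 49 of 54 genes were abundant enough to test. Of these 32 were lower and 2 higher, and the median log2 fold change was -1.85. Both mutant libraries lay below both wild-type ones for 38 of the 49, where 36.9% of all genes tested did so. Relative to pan-neural genes 26 were lower and 9 higher, where 1.86% of all genes were lower and 78.1% higher, and 25 were lower in both scalings. With 1 library left out, 18, 31, 19 and 17 of the genes passed as lower, and relative to pan-neural genes 11, 26, 23 and 20. In the anterior forebrain list, which holds regulators of the telencephalon and its border, 6 of 8 tested genes fell, none rose and the median was -2.81, and this median does not change with Emx1 at the bound given below. In the eye field list 5 of 8 fell and 1 rose (median -2.25; 3, 5, 3 and 2 fell with 1 library left out). In the ventral forebrain list, of hypothalamus and basal forebrain, 3 of 5 fell (median -1.49), but 2, 2, 0 and 0 did with 1 library left out. The diencephalon list was mixed, with 3 of 6 lower, 1 higher and a median of -0.53 that turned to 0.40 relative to pan-neural genes, and 0, 2, 1 and 0 of its genes were lower with 1 library left out.

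**Figure D1:**
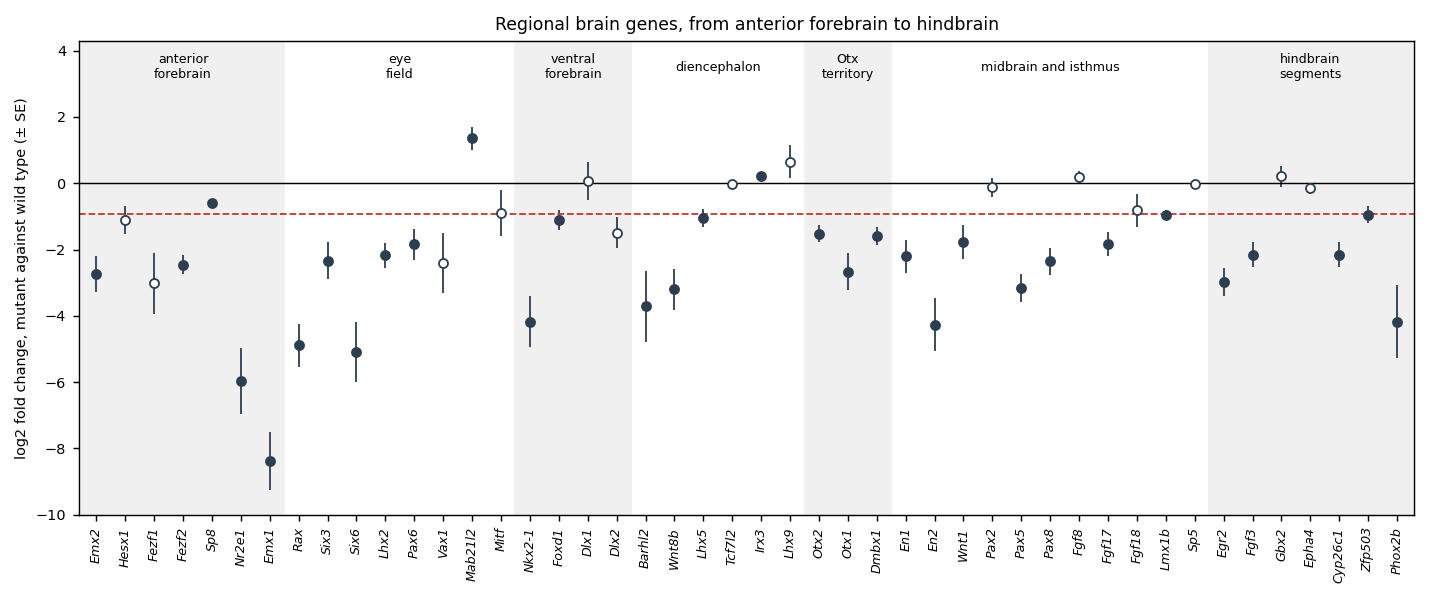
Log2 fold change (mutant over wild type, ± SE) of the tested genes of the 7 brain lists that are reported here, ordered from anterior forebrain to hindbrain. Filled circles passed at an adjusted p under 0.05 and open circles did not, and the dashed line is the median of the pan-neural list, -0.94. Most genes lie below the dashed line, while Irx3 and Mab21l2 passed above 0.

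Emx2, a regulator of dorsal telencephalon, stood at 5.15 and 3.18 RPKM in wild-type, 3.18 and 3.54 in heterozygous and 0.936 and 0.288 in mutant heads (log2 -2.73, SE 0.54, adjusted p = 0.0153). Hesx1 at 8.86 and 8.72 against 5.40 and 2.64 RPKM and Fezf1 at 12.2 and 8.46 against 2.33 and 0.118 RPKM, both early forebrain repressors, did not overlap between the groups but did not pass (adjusted p = 0.0962 and 0.0569). In Fezf1 the mutant libraries were far apart. Emx1, named here after its values were seen, had 51 and 42 reads in wild-type and 0 in both mutant libraries, which is at least 28.3-fold lower at a floor of 3 reads over the group.

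In the eye field, Rax, without which no optic vesicle forms, stood at 9.15 and 6.76 RPKM in wild-type, 4.70 and 5.42 in heterozygous and 0.444 and 0.0612 in mutant heads (log2 -4.88, SE 0.65, adjusted p = 0.00505), with heterozygous heads between the others. Six3, which keeps the forebrain from taking a more posterior identity, stood at 16.96 and 11.3 RPKM in wild-type, 11.8 and 11.8 in heterozygous and 4.33 and 1.18 in mutant heads (log2 -2.33, SE 0.56, adjusted p = 0.0275). Both heterozygous libraries lay within the wild-type range, and mutant replicate 2 was lower than mutant replicate 1. Six6, a partner of Six3 in retina and hypothalamus, fell from 1.55 and 1.02 to 0.0535 and 0.0172 RPKM and Lhx2, which specifies the optic vesicle, from 18.996 and 14.03 to 4.17 and 3.07 RPKM (log2 -5.09 and -2.18, SE 0.91 and 0.38, adjusted p = 0.0117 and 0.0108). Against the rest of its list, Mab21l2, an eye gene also expressed in other tissues, rose from 5.40 and 3.16 to 13.8 and 7.90 RPKM (log2 1.35, SE 0.36, adjusted p = 0.0372). Rax passed whichever library was left out. The threshold was missed by Emx2 and Six3 without wild-type replicate 1 (adjusted p = 0.0526 and 0.0881), Mab21l2 without wild-type replicate 2 (adjusted p = 0.104), Six6 and Mab21l2 without mutant replicate 1 (adjusted p = 0.0534 and 0.161) and Six6 and Lhx2 without mutant replicate 2 (adjusted p = 0.0632 and 0.0609).

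Of the ventral forebrain, Nkx2-1, which specifies the hypothalamus and medial basal forebrain, fell from 1.28 and 1.26 to 0.0654 and 0.0721 RPKM (log2 -4.17, SE 0.77, adjusted p = 0.0129). Its wild-type libraries were alike, and heterozygous replicate 1 (0.114 RPKM) was closer to the mutant libraries than heterozygous replicate 2 (0.567). Foxd1, a winged-helix gene of the optic chiasm region that is also expressed in head mesenchyme, fell from 11.3 and 17.1 to 6.63 and 6.47 RPKM (log2 -1.11, SE 0.31, adjusted p = 0.0432). Relative to pan-neural genes it was at -0.15 and did not pass. In the diencephalon, Wnt8b, a Wnt ligand of the dorsal midline, fell from 4.45 and 2.14 to 0.423 and 0.282 RPKM (log2 -3.20, SE 0.63, adjusted p = 0.0153). Barhl2, a regulator of the future thalamus, fell from 1.47 and 0.985 to 0.0686 and 0.118 RPKM and Lhx5, a LIM homeobox gene of the forebrain, from 11.9 and 9.38 to 6.32 and 3.90 RPKM (log2 -3.71 and -1.05, adjusted p = 0.0468 and 0.032). Tcf7l2, a Wnt effector with a late thalamic role, was at 10.3 and 9.21 against 9.73 and 9.46 RPKM, with overlapping groups. Irx3, which marks the brain behind the forebrain's middle boundary as well as trunk neural tube, rose by a small amount, from 52.4 and 52.4 to 61.4 and 59.9 RPKM (log2 0.22, SE 0.06, adjusted p = 0.0331). Significance was lost for Barhl2, Wnt8b, Lhx5 and Irx3 without wild-type replicate 1 (adjusted p = 0.0506 to 0.124), Foxd1, Barhl2 and Irx3 without wild-type replicate 2 (adjusted p = 0.0681 to 0.138), Nkx2-1, Foxd1, Barhl2, Wnt8b and Irx3 without mutant replicate 1 (adjusted p = 0.0699 to 0.203) and Nkx2-1, Foxd1, Barhl2, Wnt8b, Lhx5 and Irx3 without mutant replicate 2 (adjusted p = 0.0676 to 0.148).

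At the midbrain and isthmus some genes fell while the signals of the isthmus did not all follow. In that list 7 of 11 tested genes fell and none rose on TMM scaling, with a median of -1.77, while relative to pan-neural genes 5 were lower and 3 higher (median -0.87). The 3 were Pax2, Fgf8 and Sp5, at 0.81, 1.12 and 0.91, where the median of all genes was 0.92. Of the list 4, 7, 5 and 4 fell with 1 library left out. En1, which midbrain and cerebellum need, stood at 20.5 and 17.6 RPKM in wild-type, 13.6 and 14.9 in heterozygous and 6.26 and 1.87 in mutant heads (log2 -2.20, SE 0.50, adjusted p = 0.0235). En2, its later paralogue, stood at 6.75 and 4.93 RPKM in wild-type, 0.894 and 3.63 in heterozygous and 0.434 and 0.154 in mutant heads (log2 -4.26, SE 0.80, adjusted p = 0.0134). En2 in heterozygous replicate 1 was closer to mutant than to wild type, and En1 was not. Wnt1, the Wnt ligand that maintains the midbrain, fell from 15.6 and 9.49 to 5.43 and 1.78 RPKM, just past the threshold (log2 -1.77, SE 0.52, adjusted p = 0.0496). Pax2, one of the earliest isthmus genes, was at 15.3 and 11.5 against 14.9 and 9.71 RPKM with overlapping groups, and so was Fgf8, the isthmus organiser signal that other tissues also make, at 16.2 and 11.2 against 16.4 and 14.9 RPKM. Pax5, which follows Pax2 there, fell from 10.5 and 11.01 to 1.58 and 0.789 RPKM (log2 -3.16, SE 0.41, adjusted p = 0.00492). Fgf8 and Pax5 were singled out after their values were seen. An adjusted p above the threshold was found for En1 and Wnt1 without wild-type replicate 1 (adjusted p = 0.071 and 0.169) and En2 and Wnt1 without mutant replicate 2 (adjusted p = 0.0657 and 0.0864).

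In the hindbrain, of 8 tested rhombomere genes outside the Hox clusters 5 fell and none rose (median -1.77; 3, 6, 2 and 3 fell with 1 library left out), and relative to pan-neural genes 4 were lower and 2 higher. Egr2, which is needed for rhombomeres 3 and 5, stood at 10.5 and 8.34 RPKM in wild-type, 4.57 and 7.80 in heterozygous and 1.58 and 0.769 in mutant heads (log2 -2.98, SE 0.41, adjusted p = 0.00561). Fgf3, a hindbrain ligand that induces the inner ear, fell from 11.8 and 9.68 to 2.02 and 2.77 RPKM (log2 -2.16, SE 0.38, adjusted p = 0.0111). Both mutant libraries were far below both wild-type ones for each of these genes. Gbx2, the anterior hindbrain gene that opposes Otx2 at the isthmus, did not pass, with mutant libraries at 10.1 and 20.1 RPKM on either side of the wild-type ones at 14.9 and 11.3. The 2 genes called higher relative to pan-neural genes were Gbx2 and Epha4, at 1.15 and 0.79, where the median of all genes was 0.92. Egr2 passed whichever library was left out. The threshold was missed by Fgf3 without mutant replicate 1 (adjusted p = 0.0697).

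**Figure D2:**
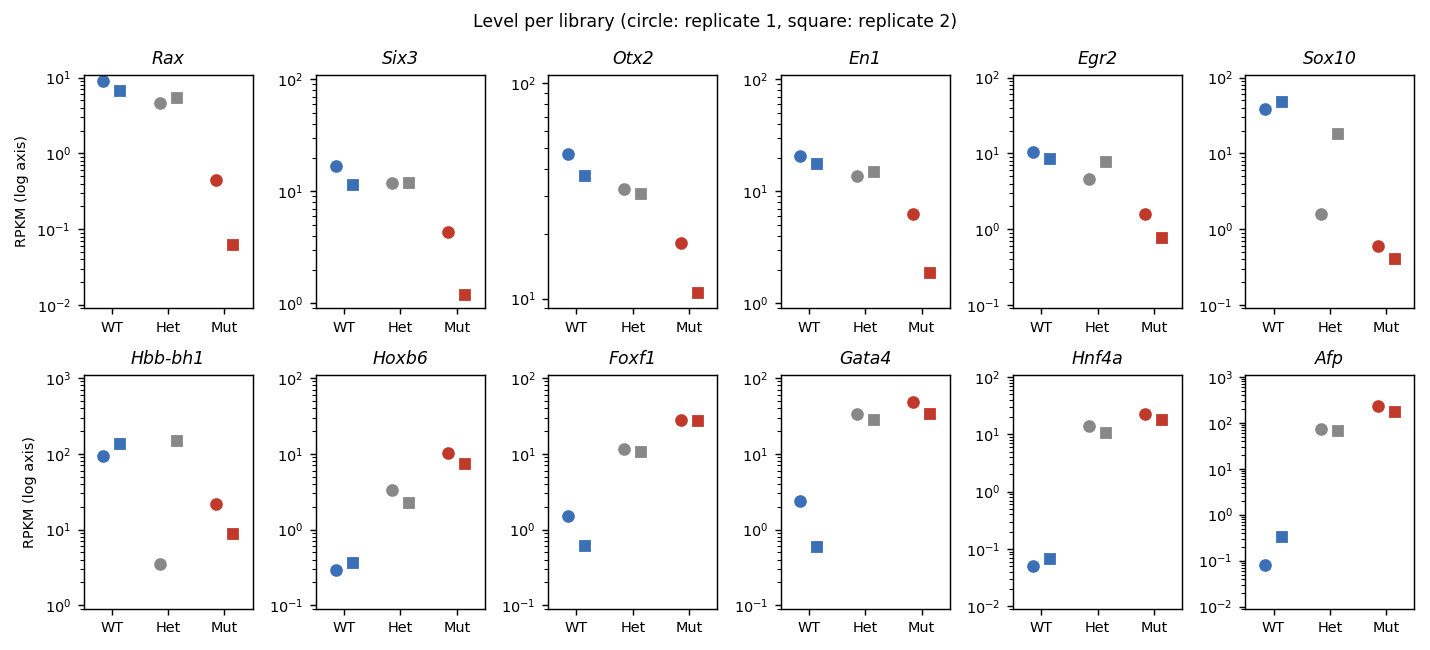
RPKM (log axes) of 12 genes in each wild-type (WT), heterozygous (Het) and mutant (Mut) library, with replicate 1 as circles and replicate 2 as squares. From Rax to Hbb-bh1 both mutant libraries lie below both wild-type ones, and from Hoxb6 to Afp above, and heterozygous replicate 1 is next to the mutants in Sox10 and Hbb-bh1.

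The Hox genes that passed went the other way. Of 27 tested in 39 listed, 10 rose and none fell, with a median of 2.01, where 17.1% of all genes tested rose. Relative to pan-neural genes 18 of the 27 were higher and none lower, a smaller share higher than the 78.1% of all genes. Both mutant libraries were above both wild-type ones for 17 of the 27, where 34.1% of all genes tested were. With 1 library left out 13, 8, 8 and 6 passed as higher. By paralogue group, 4 of 5 genes rose in groups 1 and 2 (median 1.31), 1 of 7 in groups 3 and 4 (2.01), 4 of 9 in groups 5 to 8 (3.37) and 1 of 6 in groups 9 to 13. The shares that rose in groups 3 and 4 and in groups 9 to 13 were near that of all genes. The counts of groups 1 and 2 were 4, 3, 2 and 2, and those of groups 5 to 8 were 7, 4, 4 and 3, with 1 library left out. Groups 9 to 13 had a median of -0.88 that turned to 0.14 relative to pan-neural genes.

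**Figure D3:**
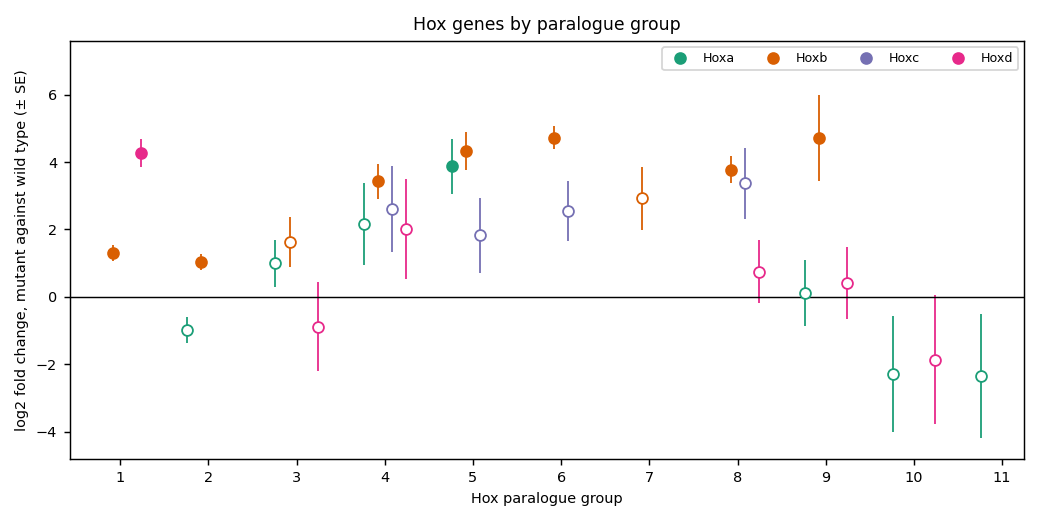
Log2 fold change (mutant over wild type, ± SE) of the tested Hox genes that are reported here against their paralogue group, coloured by cluster; filled circles passed and open ones did not. The Hoxb genes of groups 4, 5, 6 and 8 lie between 3.43 and 4.72, while Hoxa10, Hoxd10 and Hoxa11 lie below 0 with wide errors.

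Hoxb1, a gene of rhombomere 4 and of the early posterior embryo, rose from 7.82 and 7.35 RPKM in wild-type to 14.7 and 22.8 in mutant heads (log2 1.31, SE 0.24, adjusted p = 0.012). Hoxd1, its paralogue, stood at 0.391 and 0.184 RPKM in wild-type, 1.65 and 1.29 in heterozygous and 4.49 and 6.64 in mutant heads (log2 4.26, SE 0.42, adjusted p = 0.00207). The 3 genotypes did not overlap for Hoxd1. Hoxa2, the only Hox gene of rhombomere 2, was at 9.65 and 7.43 against 3.47 and 5.10 RPKM and did not pass (adjusted p = 0.109). Hoxa3 and Hoxd3 overlapped between the groups, and wild-type replicate 1 had the highest Hoxd3 level of all libraries, 9.76 RPKM against 0.903 in replicate 2. Hoxa5 rose from 0.116 and 0.0303 to 0.592 and 1.67 RPKM and Hoxb5 from 0.346 and 0.0901 to 3.89 and 5.03 RPKM, both genes of the neck and trunk (log2 3.87 and 4.32, SE 0.81 and 0.57, adjusted p = 0.0185 and 0.00497). Hoxb6, a trunk gene named here after its values were seen, rose from 0.294 and 0.366 to 10.2 and 7.24 RPKM (log2 4.72, SE 0.33, adjusted p = 0.000831). Hoxa10 and Hoxa11, genes of the uterus as well as of the hind body, were at 3.83 and 3.62 RPKM in wild-type replicate 2 and at 0.717 and 0.640 in mutant replicate 2, the 2 libraries with decidua transcripts, and under 0.1 in the other libraries. Hoxb1, Hoxd1 and Hoxb5 passed whichever library was left out. Significance was lost for Hoxa5 without wild-type replicate 2 (adjusted p = 0.061) and without mutant replicate 2 (adjusted p = 0.0805).

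Genes expressed along the whole neural tube had a median of -0.94, against -2.33 over the 27 tested forebrain genes. All 8 pan-neural genes fell on TMM scaling ( 5, 5, 4 and 4 with 1 library left out). Sox2, the core neural progenitor gene, stood at 53.96 and 59.7 RPKM in wild-type, 52.1 and 42.03 in heterozygous and 31.7 and 34.2 in mutant heads (log2 -0.78, SE 0.11, adjusted p = 0.0062). The transcript Sox2ot overlaps Sox2, and the strand setting of the counting is not given in the sources used here. Sox1 was at 21.2 and 21.7 against 12.6 and 13.8 RPKM, Sox3 at 32.2 and 32.02 against 22.3 and 24.6 RPKM and the RNA-binding gene Msi1 at 79.05 and 71.3 against 51.9 and 54.9 RPKM (log2 -0.69, -0.44 and -0.49, adjusted p = 0.00175, 0.0245 and 0.00495). When scaled to the list, Sox1, Sox2, Sox3 and Msi1 were at 0.25, 0.17, 0.50 and 0.45 and thus above 0, while Pou3f2, Pou3f3 and Hes5, of later neural progenitors, were at -2.34, -1.36 and -1.33. In bulk RNA, fewer cells of a type and less RNA per cell cannot be told apart. Of the neuron list 7 of 9 tested genes fell (median -1.28, 4, 5, 3 and 3 with 1 library left out). Neurog2, which starts neuron formation, fell from 1.06 and 0.899 to 0.0716 and 0.200 RPKM (log2 -2.87, SE 0.49, adjusted p = 0.0102). Neurog1, its paralogue in sensory ganglia and brain, had 68 and 23 reads in wild-type and 2 and 1 in mutant libraries and passed as lower (adjusted p = 0.0201). Sox1, Sox2, Msi1 and Neurog2 passed whichever library was left out. An adjusted p above the threshold was found for Sox3 and Neurog1 without wild-type replicate 1 (adjusted p = 0.0935 and 0.0776), Sox3 without wild-type replicate 2 (adjusted p = 0.068), Sox3 and Neurog1 without mutant replicate 1 (adjusted p = 0.129 and 0.104) and Sox3 and Neurog1 without mutant replicate 2 (adjusted p = 0.0582 and 0.0994).

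Across the dorsal to ventral axis of the neural tube, some genes of the dorsal list and some of the ventral list fell. Of 9 dorsal genes 6 fell (median -1.17), but with 1 library left out 0, 7, 1 and 0 passed as lower, and relative to pan-neural genes 3 were lower and 3 higher. Pax3, which patterns the dorsal neural tube and crest, fell from 12.7 and 8.61 to 5.13 and 4.25 RPKM (log2 -1.17, SE 0.24, adjusted p = 0.0174) and Pax7, its paralogue, from 5.55 and 3.74 to 2.31 and 1.51 RPKM (adjusted p = 0.0211). Zic1, a zinc finger gene of the neural plate border, stood at 6.96 and 3.97 RPKM in wild-type, 0.405 and 3.11 in heterozygous and 0.324 and 0.376 in mutant heads (log2 -3.96, SE 0.94, adjusted p = 0.0271). Heterozygous replicate 1 had the mutant level of Zic1. Zic2, whose loss is linked to holoprosencephaly, was at 32.8 and 22.8 against 21.8 and 22.7 RPKM and did not pass (adjusted p = 0.217). The 3 dorsal genes called higher relative to pan-neural genes were Zic2, Zic5 and Olig3. They were at 0.61, 0.82 and 1.89, where the median of all genes was 0.92. Of 7 ventral genes 3 fell and 1 rose (median -1.95). Shh, the ventral midline signal, was at 5.79 and 6.65 against 4.96 and 5.36 RPKM and did not pass (adjusted p = 0.412). Foxa2, which marks floor plate but also axial mesoderm and endoderm, rose from 7.03 and 9.06 to 11.4 and 11.7 RPKM (log2 0.53, SE 0.13, adjusted p = 0.0298). Nkx2-2 fell from 1.47 and 2.04 to 0.607 and 0.282 RPKM and Nkx2-9 from 10.7 and 13.97 to 2.21 and 3.795 RPKM, both homeobox genes next to the floor plate (log2 -1.95 and -2.04, adjusted p = 0.0208 and 0.00608). Nkx2-9 passed whichever library was left out. The threshold was missed by Pax3, Pax7, Zic1 and Foxa2 without wild-type replicate 1 (adjusted p = 0.0579 to 0.08), Nkx2-2 without wild-type replicate 2 (adjusted p = 0.0593), Pax3, Zic1 and Foxa2 without mutant replicate 1 (adjusted p = 0.0643 to 0.135) and Pax3, Pax7, Zic1, Foxa2 and Nkx2-2 without mutant replicate 2 (adjusted p = 0.0632 to 0.114).

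Nearly all crest genes fell, 9 of 10 with a median of -1.86 (6, 8, 4 and 4 with 1 library left out). Relative to pan-neural genes 5 were lower and none higher. Sox10, which migrating crest cells need, stood at 38.3 and 47.4 RPKM in wild-type, 1.61 and 17.96 in heterozygous and 0.604 and 0.402 in mutant heads (log2 -6.38, SE 1.21, adjusted p = 0.014). The mutant libraries were near the bottom of the scale, and the heterozygous ones differed from each other, replicate 1 being close to mutant. Sox9, a crest and cartilage gene, fell from 25.3 and 23.4 to 14.3 and 9.02 RPKM and Tfap2a, an early border and crest gene, from 21.9 and 20.4 to 11.8 and 8.65 RPKM (log2 -1.05 and -1.04, SE 0.22 and 0.17, adjusted p = 0.0183 and 0.00863). Foxd3, an early crest gene, was at 9.55 and 8.76 against 4.08 and 0.976 RPKM and did not pass (adjusted p = 0.0583), with mutant replicate 2 well below mutant replicate 1. Tfap2a passed whichever library was left out. Significance was lost for Sox9 without wild-type replicate 1 (adjusted p = 0.0682), Sox10 without mutant replicate 1 (adjusted p = 0.0809) and Sox10 without mutant replicate 2 (adjusted p = 0.0792).

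Cranial placodes, the thickenings that form sense organs and ganglia, showed part of the change. Of 8 tested placode genes 4 fell and none rose (median -0.96), and relative to pan-neural genes 1 was lower and 1 higher. The higher one, Six4, was at 0.72 in that scaling, below the median of all genes, 0.92. Eya1 and Eya2, cofactors that placodes and muscle need, fell from 12.1 and 12.4 to 6.50 and 6.15 RPKM and from 10.6 and 9.43 to 5.35 and 4.71 RPKM (log2 -0.94 and -0.99, adjusted p = 0.0011 and 0.00389). Eya1 and Eya2 passed whichever library was left out. Six4, at 7.29 and 8.61 against 6.43 and 7.08 RPKM, did not pass (adjusted p = 0.144).

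The mesenchyme of the face did not follow the crest list. Of 9 genes of face and pharyngeal arch mesenchyme 7 rose and none fell (median 0.82; 6, 4, 3 and 6 higher with 1 library left out). Alx1, which shapes the face around the eye and nose, rose from 1.70 and 1.88 to 3.32 and 4.002 RPKM and Prrx1, a gene of loose mesenchyme in head and limb, from 5.14 and 5.12 to 6.80 and 7.17 RPKM (log2 1.04 and 0.45, SE 0.16 and 0.07, adjusted p = 0.00811 and 0.0071). Alx4, of the same family, lay in the other direction at 3.32 and 4.65 against 1.58 and 1.33 RPKM and did not pass (adjusted p = 0.0713). Of 7 tested genes of cranial mesoderm 3 rose and none fell. Tcf21, a gene of head muscle precursors and heart lining, rose from 3.17 and 3.81 to 7.995 and 5.66 RPKM (log2 0.98, SE 0.22, adjusted p = 0.022). Tbx1, a regulator of the pharyngeal arches, was at 22.7 and 22.7 against 21.7 and 25.1 RPKM with overlapping groups. Alx1 and Prrx1 passed whichever library was left out. An adjusted p above the threshold was found for Tcf21 without wild-type replicate 1 (adjusted p = 0.0923) and without mutant replicate 1 (adjusted p = 0.0994).

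The tissue under the midline induces the forebrain. Of 9 genes of notochord, prechordal plate and head organiser 2 rose and none fell (median 1.15; 2, 1, 3 and 1 rose with 1 library left out). The share of this list that rose was near that of all genes, 17.1%. Noto, a notochord gene, was at 0.106 and 0.0533 RPKM in wild-type and 0.281 and 2.04 in mutant heads, so that its call (adjusted p = 0.0395) came with a large difference between the mutant libraries. The other gene that rose was Lhx1, which the head organiser needs, from 0.282 and 0.0518 to 4.32 and 7.32 RPKM (adjusted p = 0.005), singled out after its values were seen. Chrd and Nog, which block BMP signals, were at 0.777 and 1.23 against 1.29 and 3.16 RPKM and 4.46 and 2.49 against 4.64 and 5.79 RPKM and did not pass (adjusted p = 0.105 and 0.178). Gsc, a prechordal plate gene, overlapped between the groups at 0.682 and 1.31 against 0.901 and 0.319 RPKM. The threshold was missed by Noto without wild-type replicate 1 (adjusted p = 0.119), without wild-type replicate 2 (adjusted p = 0.134) and without mutant replicate 2 (adjusted p = 0.159).

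Among tissues behind and beside the head, lateral plate genes rose together, while the lists of the trunk axis were mixed. In the list of caudal progenitors, the cells of the tail end that extend the trunk, 4 of 8 genes rose and 1 fell (median 2.32). The gene that fell was Wnt3a, which the dorsal midline of the neural tube also expresses (2.71 and 1.41 against 0.644 and 0.421 RPKM), and it passed in 1 of the 4 fits with a library left out (adjusted p up to 0.0865). With 1 library left out 1, 1, 5 and 1 were higher. Cdx2, a regulator of the posterior body, stood at 0.192 and 0.0531 RPKM in wild-type, 1.81 and 1.31 in heterozygous and 4.72 and 15.6 in mutant heads (log2 6.32, SE 0.82, adjusted p = 0.00479). Cdx1 rose from 0.596 and 0.391 to 4.31 and 34.6 RPKM and Nkx1-2 from 0.982 and 0.314 to 3.15 and 17.6 RPKM (adjusted p = 0.0226 and 0.0269). Mutant replicate 2 was the highest library for all 3 genes, several times above mutant replicate 1. T, the gene of primitive streak and notochord, was at 5.53 and 5.50 against 7.38 and 17.6 RPKM and did not pass (adjusted p = 0.0616). Of 6 tested somite genes 2 rose and 1 fell (median 0.78), and 2, 1, 0 and 0 rose with 1 library left out. Of 3 tested genes of presomitic mesoderm, which forms the somites, none rose (median 2.29) and 1 fell, Lfng, a modifier of Notch signalling that other tissues express too (log2 -1.57, adjusted p = 0.0116, up to 0.0705 with 1 library left out). Of the presomitic genes 0, 0, 3 and 0 rose with 1 library left out. All 6 tested genes of lateral plate, amnion and allantois rose (median 2.76; 5, 6, 4 and 6 with 1 library left out). Foxf1, which lateral plate and its derivatives need, stood at 1.49 and 0.611 RPKM in wild-type, 11.7 and 10.6 in heterozygous and 28.01 and 27.1 in mutant heads (log2 4.70, SE 0.36, adjusted p = 0.00105). Hand1, a gene of heart, amnion and extraembryonic mesoderm, rose from 9.41 and 12.8 to 127 and 75.8 RPKM and Bmp4, a ligand made there and at the dorsal midline, from 7.16 and 4.71 to 27.4 and 22.3 RPKM (log2 3.20 and 2.07, SE 0.30 and 0.22, adjusted p = 0.00176 and 0.00254). The genotypes did not overlap for Foxf1, Hand1 or Bmp4. Cdx2, Foxf1, Hand1 and Bmp4 passed whichever library was left out. Significance was lost for Cdx1 and Nkx1-2 without wild-type replicate 1 (adjusted p = 0.0896 and 0.06), Cdx1 and Nkx1-2 without wild-type replicate 2 (adjusted p = 0.0827 and 0.0865) and Cdx1 and Nkx1-2 without mutant replicate 2 (adjusted p = 0.052 and 0.0787).

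Most heart genes rose in mutant heads, and the heterozygous libraries were also above wild type. Of 15 tested heart genes 12 rose and none fell (median 3.51), with 13, 10, 4 and 9 higher when 1 library was left out. Their summed level was 297 and 152 CPM in wild-type, 1889 and 2982 in heterozygous and 2145 and 1225 in mutant libraries. Gata4, which heart and endoderm share, stood at 2.35 and 0.596 RPKM in wild-type, 33.9 and 27.9 in heterozygous and 48.3 and 33.9 in mutant heads (log2 4.79, SE 0.56, adjusted p = 0.00358). Among the heart regulators, Nkx2-5 rose from 7.29 and 3.33 to 36.9 and 23.6 RPKM, Tbx5 from 0.573 and 0.0217 to 8.53 and 5.06 RPKM and Tbx20 from 2.04 and 0.522 to 20.999 and 12.5 RPKM (log2 2.51, 4.47 and 3.70, adjusted p = 0.00833, 0.0158 and 0.00899). Myl7, the atrial myosin light chain, stood at 37.4 and 4.44 RPKM in wild-type, 289 and 390.003 in heterozygous and 361 and 216 in mutant heads (log2 3.77, SE 0.82, adjusted p = 0.0207). The wild-type libraries were unequal, and heterozygous replicate 2 was the highest library, with heterozygous replicate 1 between the mutant ones. Tnnt2, Actc1 and Myh6, which encode proteins of the contracting fibre, had log2 fold changes of 3.96, 3.51 and 4.06 (adjusted p = 0.0159, 0.0249 and 0.0379). None of the heart muscle genes passed without mutant replicate 1, against 7 of 8 with all libraries. Gata4, Nkx2-5 and Tbx20 passed whichever library was left out. An adjusted p above the threshold was found for Tbx5, Myl7, Tnnt2, Actc1 and Myh6 without mutant replicate 1 (adjusted p = 0.0686 to 0.134) and Myl7 and Myh6 without mutant replicate 2 (adjusted p = 0.05 and 0.0748).

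Embryonic blood genes differed widely between the 2 heterozygous libraries as well as between genotypes. Of 9 tested genes of primitive red cells 1 fell and none rose, and their summed level was 170.2 and 251 CPM in wild-type, 8.77 and 242 in heterozygous and 34.4 and 15.7 in mutant libraries. Hbb-bh1, an embryonic beta-like globin, stood at 93.2 and 133 RPKM in wild-type, 3.49 and 148 in heterozygous and 21.5 and 8.76 in mutant heads and did not pass (adjusted p = 0.174). Both mutant libraries were below wild type, yet the lowest and the highest libraries were both heterozygous. Hba-x, the embryonic alpha-like globin, followed at 138 and 198 RPKM in wild-type, 2.90 and 206 in heterozygous and 22.7 and 5.62 in mutant heads (adjusted p = 0.15). Hbb-y fell from 34.04 and 47.3 to 1.71 and 0.165 RPKM (log2 -5.34, SE 1.54, adjusted p = 0.0475), a call lost whichever library was left out. Reads of globin genes can be divided among near-identical copies in ways the sources used here do not state. Genes of the blood vessel lining gave 1 call in 10, with a median of 0.22.

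Visceral endoderm genes rose in nearly every case. Of 22 tested genes 21 rose and none fell, the median was 7.68, and 20, 20, 20 and 21 rose when 1 library was left out. The summed level was 325 and 314 CPM in wild-type, 3758 and 2773 in heterozygous and 6263 and 5231 in mutant libraries, so both other genotypes were above wild type and the mutant libraries highest. Hnf4a, the nuclear receptor that switches on secreted liver and yolk sac proteins, stood at 0.0501 and 0.0653 RPKM in wild-type, 14.2 and 10.4 in heterozygous and 22.5 and 18.1 in mutant heads (log2 8.46, SE 0.29, adjusted p = 0.000247). Foxa3, a winged-helix gene of endoderm, rose from 0.107 and 0.140 to 2.74 and 3.06 RPKM and Gata6, a gene of primitive endoderm and heart, from 3.84 and 1.59 to 31.7 and 26.9 RPKM (log2 4.55 and 3.43, SE 0.30 and 0.39, adjusted p = 0.000664 and 0.00329). In wild-type heads Hnf4a and Foxa3 were close to 0, while Gata6, which other tissues also express, was not.

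Among the secreted products all 10 tested genes rose (median 8.35). Afp, alpha-fetoprotein, stood at 0.0815 and 0.328 RPKM in wild-type, 74.5 and 66.9 in heterozygous and 230.4 and 175 in mutant heads (log2 10.01, SE 0.36, adjusted p = 0.000247). Ttr, which carries thyroid hormone, stood at 0.298 and 0.700 RPKM in wild-type, 174 and 122 in heterozygous and 373 and 305 in mutant heads, and Apoa1, an apolipoprotein, at 0.246 and 0.951 RPKM in wild-type, 402 and 254 in heterozygous and 764 and 621 in mutant heads (log2 9.45 and 10.24, SE 0.36 and 0.49, adjusted p = 0.000247 and 0.000312). Apoa4, another apolipoprotein, had 0 and 4 reads in the wild-type libraries and 6911 and 4324 in the mutant ones. Heterozygous levels of Afp, Ttr and Apoa1 lay between those of the other genotypes, with no overlap. All 7 genes of nutrient uptake rose as well (median 5.34). Cubn and Amn, which together form a receptor that takes up proteins, rose from 0.0879 and 0.171 to 83.3 and 67.6 RPKM and from 0.360 and 0.372 to 72.9 and 57.4 RPKM (log2 9.22 and 7.48, adjusted p = 0.000251 and 0.000308). Lrp2, an uptake receptor that the neural plate also makes, rose less, from 9.64 and 9.98 to 24.2 and 16.4 RPKM (log2 1.06, SE 0.22, adjusted p = 0.0172). Dab2, its adaptor, rose from 29.7 and 27.7 to 158 and 130.1 RPKM (log2 2.34, SE 0.13, adjusted p = 0.000519). Hnf4a, Foxa3, Gata6, Afp, Ttr, Apoa1, Apoa4, Cubn, Amn and Dab2 passed whichever library was left out. The threshold was missed by Lrp2 without wild-type replicate 1 (adjusted p = 0.0682), without wild-type replicate 2 (adjusted p = 0.0503) and without mutant replicate 1 (adjusted p = 0.059).

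CAAAGTCCA, a sequence that HNF4 proteins bind, read on both strands, was in 0.475% of all RefSeq promoters and in none of the 21 found for 18 of the 24 visceral endoderm genes. So rare a sequence is likely to be absent from any 21 promoters, so its absence says nothing on HNF4 binding.

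The rise in these tissues stood beside the fall of the brain genes in the same libraries. From wild-type to mutant libraries the summed level of the brain lists went from 1489.9 and 1276 to 712 and 655 CPM and that of the pan-neural list from 504 and 512 to 278 and 303 CPM. In heterozygous libraries visceral endoderm and heart were above wild type while the brain lists stood at 1009 and 1161 CPM, and Otx2 and Six3 were closer to wild type than to mutant levels. The part of yolk sac, heart and posterior tissue in the fall of the brain genes was not tested. With libraries scaled to pan-neural genes 26 of 49 brain genes were lower and 9 higher, scaled to Sox1, Sox2, Sox3 and Msi1 26 and 7, and scaled to the neuron list 23 and 10. Of all genes 1.86% were lower and 78.1% higher in the pan-neural scaling. Without wild-type replicate 1 the pan-neural scaling gave 11 lower.

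**Figure D4:**
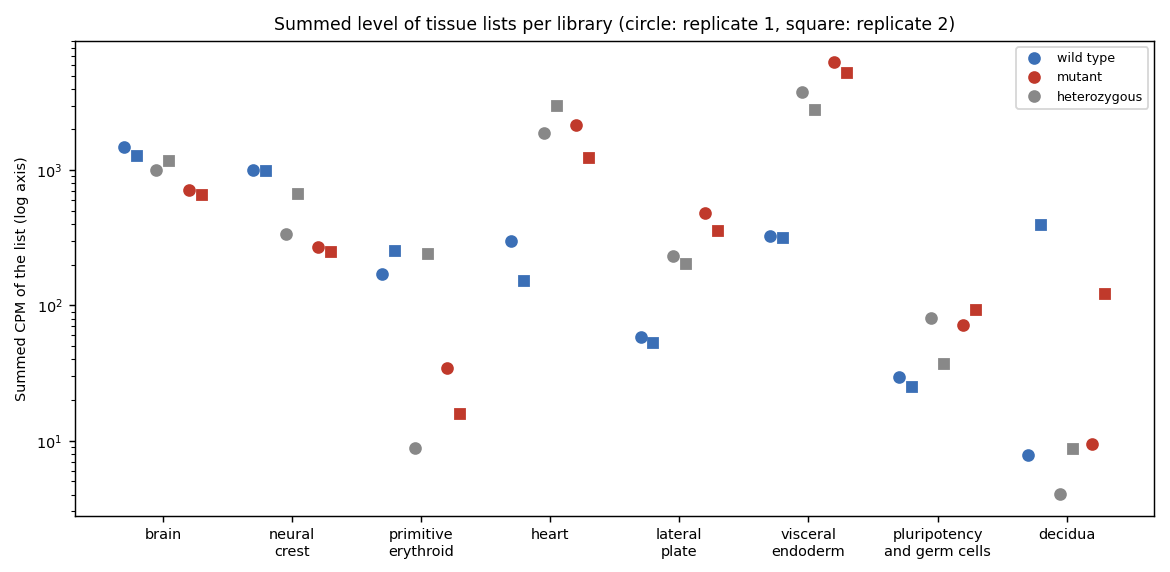
Summed CPM (log axis) of 8 gene lists in each library, with replicate 1 as circles and replicate 2 as squares. Brain and crest lists are lowest in the mutant libraries, lateral plate and visceral endoderm lists are highest there, and the decidua list is high only in wild-type replicate 2 and mutant replicate 2 (393 and 122 CPM).

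For the list of parietal endoderm, which lines the outer yolk sac, the summed level was also higher, but most genes did not pass. The summed level was 878 and 1067 CPM in wild-type, 1264 and 1203 in heterozygous and 1441 and 1449.6 in mutant libraries, with no overlap between genotypes. Of the 9 genes 5 did not pass, none fell and 4 rose (median 0.31; 3, 4, 4 and 3 rose with 1 library left out). Among them Sparc, which encodes a matrix protein, rose from 51.2 and 63.7 to 126 and 104 RPKM and Col4a1, a collagen of basement membranes, from 54.1 and 66.4 to 91.1 and 98.2 RPKM (log2 1.01 and 0.66, adjusted p = 0.00504 and 0.00835), both singled out after their values were seen. Trophoblast and decidua did not follow the genotype. Of 5 tested trophoblast genes 1 fell and none rose. None of the 8 decidua genes passed by edgeR's test (0 had an unadjusted p under 0.05 and 0 passed with DESeq2), and Prl8a2, a prolactin-like decidua product, was at 3.83 and 300.1 RPKM in wild-type and 6.82 and 70.3 in mutant heads, which shows 1 high library in each group.

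Of 6 tested genes of the epiblast, the tissue from which the whole embryo arises, and of germ cells, 2 rose and none fell (median 1.71), and 1, 1, 0 and 0 rose with 1 library left out. Pou5f1, which keeps cells pluripotent and is later kept in germ cells, stood at 2.76 and 2.23 RPKM in wild-type, 26.2 and 4.87 in heterozygous and 22.96 and 35.4 in mutant heads (log2 3.55, SE 0.78, adjusted p = 0.0216). Heterozygous replicate 1 had a mutant level and heterozygous replicate 2 was near wild type. Nanog followed the same pattern, at 0.307 and 0.347 RPKM in wild-type, 2.68 and 0.242 in heterozygous and 2.75 and 2.80 in mutant heads, and did not pass (adjusted p = 0.0633). Prdm1, a relative of Prdm15 that germ cells and visceral endoderm need, was at 4.43 and 3.32 against 5.43 and 5.998 RPKM (adjusted p = 0.0561). Significance was lost for Pou5f1 without wild-type replicate 1 (adjusted p = 0.0823), without wild-type replicate 2 (adjusted p = 0.0771), without mutant replicate 1 (adjusted p = 0.059) and without mutant replicate 2 (adjusted p = 0.0773).

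Readouts of signals that pattern the head were mixed. Among hedgehog genes 4 of 8 were lower and 1 higher (median -0.21, and 0.72 relative to pan-neural genes). With 1 library left out 2, 4, 3 and 2 were lower. The 4 were the target Gli1, the effector Gli3 and the coreceptor genes Boc and Cdon. Gli1, a transcriptional target of the pathway, stood at 15.4 and 17.3 RPKM in wild-type, 18.1 and 17.4 in heterozygous and 2.74 and 4.76 in mutant heads (log2 -2.12, SE 0.25, adjusted p = 0.00346). The heterozygous libraries were at the wild-type level. The receptor gene Ptch1, another target, was at 37.2 and 50.9 against 48.7 and 60.5 RPKM with overlapping groups. Among FGF targets 3 of 7 were lower and 2 higher (median -0.35, and 0.59 relative to pan-neural genes), and 1, 3, 2 and 2 were lower with 1 library left out. Spry1, an FGF target that blocks the pathway, stood at 19.3 and 16.2 RPKM in wild-type, 11.1 and 14.1 in heterozygous and 5.15 and 4.99 in mutant heads (log2 -1.80, SE 0.15, adjusted p = 0.00122) and was lower in both scalings. Its relative Spry2 fell from 25.3 and 23.8 to 19.3 and 17.3 RPKM (log2 -0.41, adjusted p = 0.0177). Relative to pan-neural genes Spry2 passed as higher (0.52, adjusted p = 0.00549), yet below the median of all genes in that scaling, 0.92. Dusp6, an ERK phosphatase, was at 40.2 and 41.1 against 30.2 and 33.2 RPKM and did not pass (adjusted p = 0.0607). Gli1 and Spry1 passed whichever library was left out. An adjusted p above the threshold was found for Spry2 without wild-type replicate 1 (adjusted p = 0.0867) and without mutant replicate 2 (adjusted p = 0.0754).

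Retinoic acid genes moved in both directions. Aldh1a2, the enzyme that makes most of the embryo's retinoic acid in trunk mesoderm, stood at 8.79 and 4.75 RPKM in wild-type, 14.2 and 18.4 in heterozygous and 28.99 and 72.3 in mutant heads (log2 2.90, SE 0.51, adjusted p = 0.011). The genotypes did not overlap, and mutant replicate 2 was the highest. Rdh10, which makes its substrate, rose from 10.7 and 9.99 to 14.2 and 17.5 RPKM (log2 0.62, SE 0.12, adjusted p = 0.0134). Aldh1a3, the enzyme of the eye and olfactory region, fell from 1.48 and 1.66 to 0.677 and 0.260 RPKM (log2 -1.72, SE 0.45, adjusted p = 0.0359), and Aldh1a1 at 0.191 and 0.224 against 0.0911 and 0.0670 RPKM did not pass (adjusted p = 0.147). Cyp26b1, an enzyme that breaks retinoic acid down in the hindbrain, fell from 3.07 and 4.27 to 0.362 and 0.444 RPKM (log2 -3.18, SE 0.75, adjusted p = 0.0265), and was singled out after its values were seen. This call was lost whichever library was left out (adjusted p up to 0.133). Over the list of 8, 4 rose and 2 fell (median 0.81), and 4, 2, 4 and 3 rose with 1 library left out. Of 7 secreted Wnt inhibitors 2 fell and 2 rose. Aldh1a2 passed whichever library was left out. The threshold was missed by Aldh1a3 without wild-type replicate 1 (adjusted p = 0.0863), Rdh10 and Aldh1a3 without wild-type replicate 2 (adjusted p = 0.0621 and 0.0842) and Aldh1a3 without mutant replicate 2 (adjusted p = 0.0573).

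**Figure D5:**
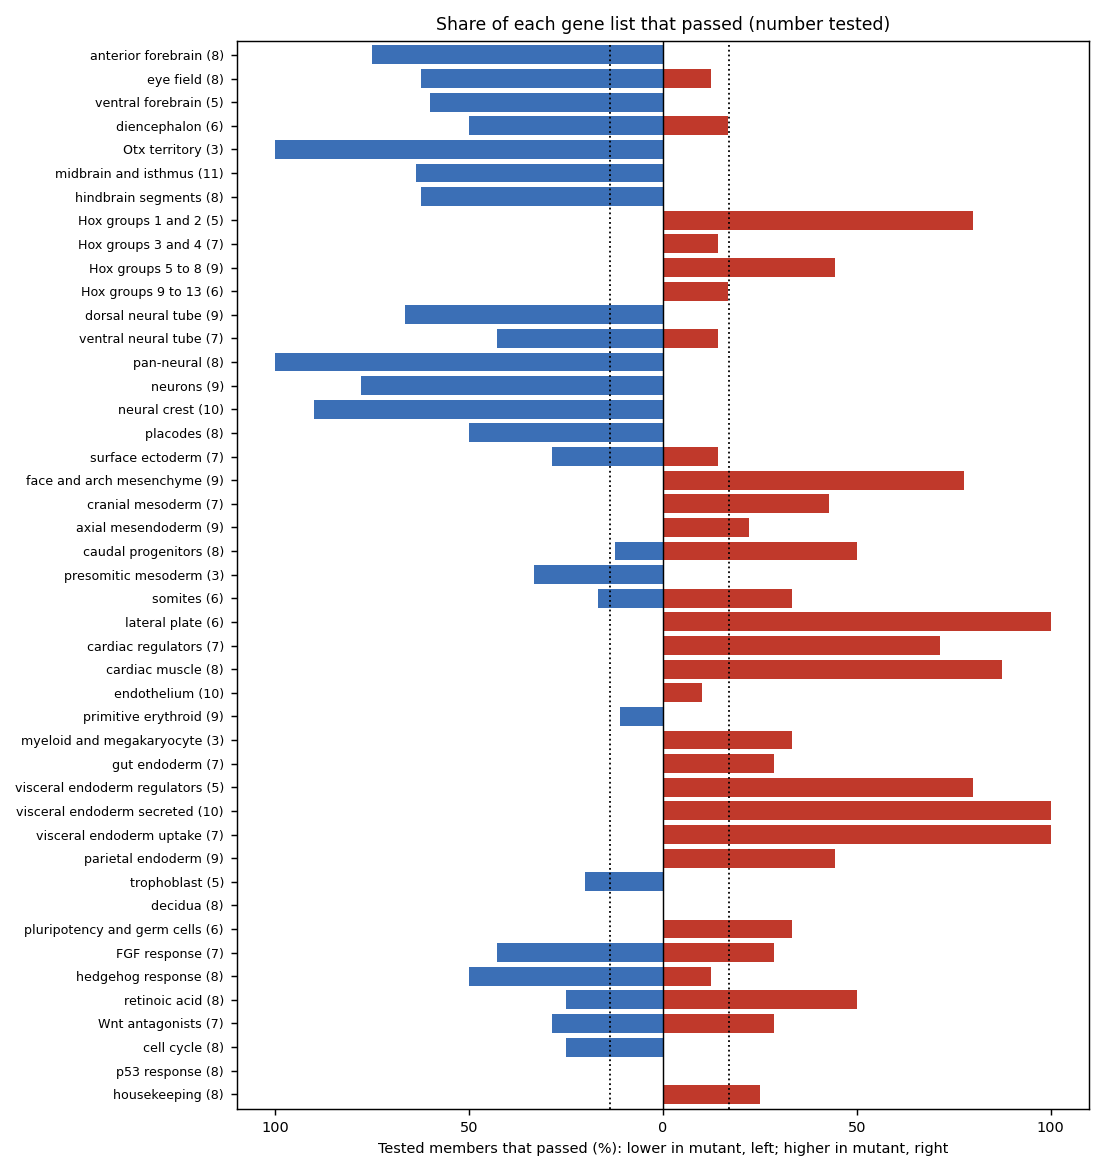
Share of the tested genes of each list (number in brackets) that passed as lower (left) or higher (right) in mutant heads, with dotted lines at the shares over all genes tested, 13.6% and 17.1%. Brain, neural and crest lists extend to the left, and lateral plate, heart and visceral endoderm lists to the right.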

How the data were processed

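Dissected E8.5 heads were sequenced in 6 libraries, 2 per genotype. Deposited files give read counts per gene, made per the submitters' processing notes with Trim Galore 0.4.0, cutadapt 1.8, TopHat2 2.0.11 and HTSeq 0.6.1p2 on mm10, with no annotation or strand setting named. One deposited table gives the authors' RPKM, log2 fold changes, likelihood ratio scores, p-values and FDR (edgeR 3.8.6, per the submitters' processing notes). Its fold changes were used only as a check, and its FDR is cited for a few genes outside the lists.

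HTSeq's 5 summary lines were left out (8.93% to 10.5% of reads without a feature, 1.04% to 1.08% ambiguous). edgeR 4.0.16 in R 4.3.3 fitted all 6 libraries with TMM scaling after filterByExpr (quasi-likelihood, 3 residual degrees of freedom), and again with libraries scaled to 8 pan-neural genes. SE is the absolute log2 fold change over the square root of F. In simulated counts 100 genes were changed 2-fold and 100 were changed 4-fold, in random directions, with all others of 15187 level. Of these changes 59% at 2-fold and 76% at 4-fold were called. False calls were 14 of 149, a larger share than the threshold of 0.05. In the data 30.6% of genes passed, so these rates need not hold there. DESeq2 1.42.0, limma 3.58.1, other scalings, no filter and left-out libraries were alternatives.

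The members and 46 gene lists were chosen with earlier results of these data known. Named were Prdm15, Otx2, the first 4 genes of each list described, brain genes that moved against their list, and the 12 unlisted genes with the largest RPKM change each way; some genes of this rule are not reported here, though lists are counted whole. For depth, 3 reads equalled 0.0742 to 0.102 CPM, counting error only.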

Additional observations from a re-analysis of the deposited data

How the results depend on the processing

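With all libraries 4654 genes passed, and 1997 to 3012 did with 1 library left out. The count was 5074 with DESeq2, 4452 with edgeR's likelihood ratio test, 4789 with limma-voom, 4541 without a filter, 4335 without heterozygous libraries, 5037 with library totals (2328 higher and 2709 lower, against 2594 and 2060), and 4387 and 4463 with limma on log2(RPKM + 1) and log2(RPKM + 0.1). Scaled to pan-neural genes, 12143 passed (11860 higher and 283 lower, so 97.7% of calls were higher against 55.7%), 10135 did when scaled to Sox1, Sox2, Sox3 and Msi1, and 13014 did when scaled to the neuron list. Of the other 135 named genes tested, 101 passed, 97 to 108 did with these tools and scalings of all genes, and 67 to 79 did with 1 library left out. The log2 fold change of Otx2 was -1.96 to -1.21 and that of Prdm15 -0.36 to -0.07 with 1 library left out. No paired analysis was possible because the labels carry no replicate numbers that the genotypes share.

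With the count files as attached to the samples, 0 genes passed in either scaling (edgeR; 318 and 246 at an unadjusted p under 0.05), Prdm15 was at 0.066 and Otx2 at -0.45 and not past the threshold. That arrangement puts a mutant file among the wild-type ones and the reverse. Log2 fold changes then reversed to higher for Foxd1 (0.39), Shh (0.16), Nkx2-2 (0.17), Nkx2-9 (0.47), Sox1 (0.071), Sox2 (0.13), Sox3 (0.054), Sox10 (0.30), Six4 (0.19), Alx4 (0.29), Gsc (0.044), Hbb-bh1 (0.30), Hba-x (0.35), Hbb-y (0.41), Prl8a2 (5.12), Prl3c1 (4.52), Dusp6 (0.078), Gli1 (0.29), Aldh1a1 (0.055), Ptn (0.12), Nap1l1 (0.049) and Ctnnb1 (0.025), and to lower for Tcf21 (-0.24), Nog (-0.14), Foxf1 (-0.10), Hand1 (-0.63), Bmp4 (-0.36), Nkx2-5 (-0.72), Tbx5 (-0.85), Tbx20 (-0.83), Gata4 (-0.56), Myl7 (-0.86), Tnnt2 (-0.76), Actc1 (-1.12), Myh6 (-1.19), Hnf4a (-0.32), Gata6 (-0.33), Afp (-0.40), Ttr (-0.29), Apoa1 (-0.31), Apoa4 (-0.32), Amn (-0.35), Cubn (-0.31), Lrp2 (-0.36), Dab2 (-0.25), Prdm1 (-0.084), Spry4 (-0.33), Mab21l2 (-0.80), Irx3 (-0.022), H19 (-0.28), Apoe (-0.15), Apoc2 (-0.16), Ftl1 (-0.032), Igf2 (-0.37), Slc2a3 (-0.052), Car4 (-0.093) and Emb (-0.044). With 1 library left out the direction reversed in at least 1 fit for Tcf7l2 (-0.11 to 0.081), Pax2 (-0.46 to 0.15), Gbx2 (-0.37 to 0.62), Hoxd3 (-2.45 to 1.69), Tbx1 (-0.062 to 0.16), Prl8a2 (-4.47 to 3.33), Prl3c1 (-4.59 to 1.91), Gzmd (-3.83 to 5.01) and Gzme (-4.52 to 5.38). With library totals Tbx1 was at -0.00093. None of these genes passed under the setting that reversed it.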

Other observations

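Among all genes tested 30.6% passed. Of 7 surface ectoderm genes 1 rose and 2 fell (median -0.16, and 0.78 relative to pan-neural genes), and whichever library was left out 1 rose and 1 fell. Of 7 genes of gut endoderm 2 rose and none fell (median 0.33; 2, 3, 1 and 1 rose with 1 library left out). Of 3 tested genes of blood cells other than red cells 1 rose.

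Of 8 cell cycle genes 2 fell (median -0.11, turning to 0.83 relative to pan-neural genes), and 0, 0, 0 and 1 fell with 1 library left out. The median of all genes relative to pan-neural genes was 0.92, above that of the cell cycle genes. None of 8 targets of p53 passed by edgeR's test (median 0.26; 3 had an unadjusted p under 0.05 and 2 passed with DESeq2). Of 8 genes in common use as references, 2 rose (median 0.19).

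Among genes in no list, the largest gains in RPKM were led by H19, an imprinted noncoding RNA, at 814 and 829 RPKM in wild-type, 1727 and 1874 in heterozygous and 2919 and 2267 in mutant heads (log2 1.67, SE 0.13, adjusted p = 0.00103). Apoe, an apolipoprotein, went from 70.5 and 75.5 to 1018 and 908 RPKM and Igf2, an imprinted growth factor next to H19, from 325 and 311 to 899.6 and 644 RPKM (adjusted p = 0.000646 and 0.00509). The largest losses included Pkm, from 2186 and 2102 to 1784 and 1653 RPKM, and Ldha, from 1606 and 1552 to 1242 and 1126 RPKM, both enzymes of glucose breakdown (log2 -0.31 and -0.41, adjusted p = 0.017 and 0.0115). In the authors' likelihood ratio test neither was below 0.05, with an FDR of 0.393 for Pkm and 0.125 for Ldha. The same test gave 3.64e-12 for H19 and 5.03e-66 for Apoe. H19, Apoe and Igf2 passed whichever library was left out. Significance was lost for Pkm and Ldha without wild-type replicate 1 (adjusted p = 0.102 and 0.0611) and Pkm without mutant replicate 2 (adjusted p = 0.0637). Relative to pan-neural genes Pkm and Ldha were at 0.63 and 0.53, below the median of all genes in that scaling, 0.92.

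The 2 heterozygous libraries differed from each other. Replicate 1 stood next to the mutant libraries in Sox10, Zic1, Hbb-bh1 and Pou5f1. Replicate 2 stood next to wild type in Zic1, Hbb-bh1 and Pou5f1, while its Sox10 level, 17.96 RPKM, lay between those of mutant and wild type. The pattern was not general, since both heterozygous libraries lay within the wild-type range for Six3 (11.8 and 11.8 RPKM) and Fezf1 (8.82 and 8.70 RPKM). Lefty1, a Nodal inhibitor, was at 5.95 and 0.0626 RPKM in heterozygous heads, against 0.0303 and 0 in wild-type and 1.01 and 2.78 in mutant heads.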
